A study of Mus musculus with 2 samples.

Results

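The cathepsins other than cathepsin K form a group of 10 genes here, Ctsa, Ctsb, Ctsc, Ctsd, Ctse, Ctsf, Ctsh, Ctsl, Ctss and Ctsz. They were chosen by name: every non-control probe whose gene name in the array files is one of these symbols or the older name Ppgb for Ctsa. That gave 15 of 41174 probes, and matching by accession to current symbols chose the same probes. The list of symbols was drawn up with earlier results of these data known. All 10 genes were measured on both arrays, of 16024 genes measured in all, where measured means well above background on both. The tested sample was the mouse macrophage-like line RAW 264.7 kept for 24 h in the RCCS, a rotating culture vessel that models microgravity, with the osteoclast-inducing cytokine RANKL at 80 ng/ml for 24 h. Its comparison was a ground-based control culture of the same line in the same serum-containing medium. The protocol text is shared by both samples and does not settle whether the control also received RANKL. The study asked what modelled microgravity does to cells on the way to becoming osteoclasts, the bone-resorbing cells.

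Cathepsins are proteases of the endosome and lysosome. They are made as inactive precursors, tagged with mannose 6-phosphate or carried by sorting receptors, delivered to acidic compartments and activated there by cleavage. In macrophages they degrade engulfed protein and process antigens, and osteoclasts release some of them with acid onto bone, where cathepsin K is the main collagen-cutting enzyme. The group takes in a cysteine class (Ctsb, Ctsc, Ctsf, Ctsh, Ctsl, Ctss and Ctsz), an aspartic class (Ctsd and Ctse) and the serine carboxypeptidase Ctsa.

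Each condition had 1 array, so no test between conditions can be made, no value below has a replicate check, and the number of arrays limits the precision. Of all probes, 60.6% passed the background flag for RCCS and 57.6% for the control, and 0 non-control spots were saturated on either. Signals were divided by the 75th percentile of their array, 966 for RCCS and 849 for the control, before the log2 ratio of RCCS over control was taken. On that scale all measured genes together had a median log2 ratio of -0.13. The 95% intervals given below come from the error the scanner software assigns to a spot and cover neither cultures, RNA extraction nor labelling. Each cathepsin probe had 1 spot, so this error is no spread measured over repeats. It was nearly the same for all probes, 0.204 to 0.208 in log2 ratio, except for Ctsh at 0.238. Repeated probes with a signal of at least 100 had a smaller median SD over spots, 0.04. All 8 macrophage markers in the list used, among them Csf1r and Cd68, were measured, with lowest signals of 5768 in RCCS cells and 1289 in control cells. Their log2 ratios ran from -0.72 for Spi1 to 2.0 for Itgam, with a median of 0.10, and their part in the cathepsin values was not tested. Markers of lymphocytes, neutrophils, mast cells, mesenchymal and epithelial cells reached at most 141 in RCCS cells and 149 in control cells. In bulk RNA, fewer expressing cells and less RNA per cell cannot be told apart.

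Cathepsin genes lay mostly above the rest of the array on the RCCS side. Of the 10 genes, 9 had log2 ratios above 0, against 38.2% of all measured genes. At least 2-fold higher on the RCCS array were 2 of the 10, Ctsl and Ctsb, against 3.88% of all measured genes, and 0 were at least 2-fold lower, against 3.78%. At 1.5-fold the count was 4, with Ctsh and Ctsd added, against 9.74% of all measured genes, and 0 were lower by that much, against 14.9%. Ctsc lay just short of the 1.5-fold line at 1.496-fold. At 3-fold higher the count was 0, against 1.28% of all measured genes. The median log2 ratio of the 10 was 0.44, which is 0.57 above that of all measured genes, and the values ran from -0.13 for Ctsz to 1.26 for Ctsl. The spot interval lay above 0 for Ctsl, Ctsb, Ctsh, Ctsd and Ctsc and held 0 for the other 5.

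**Figure D1:**
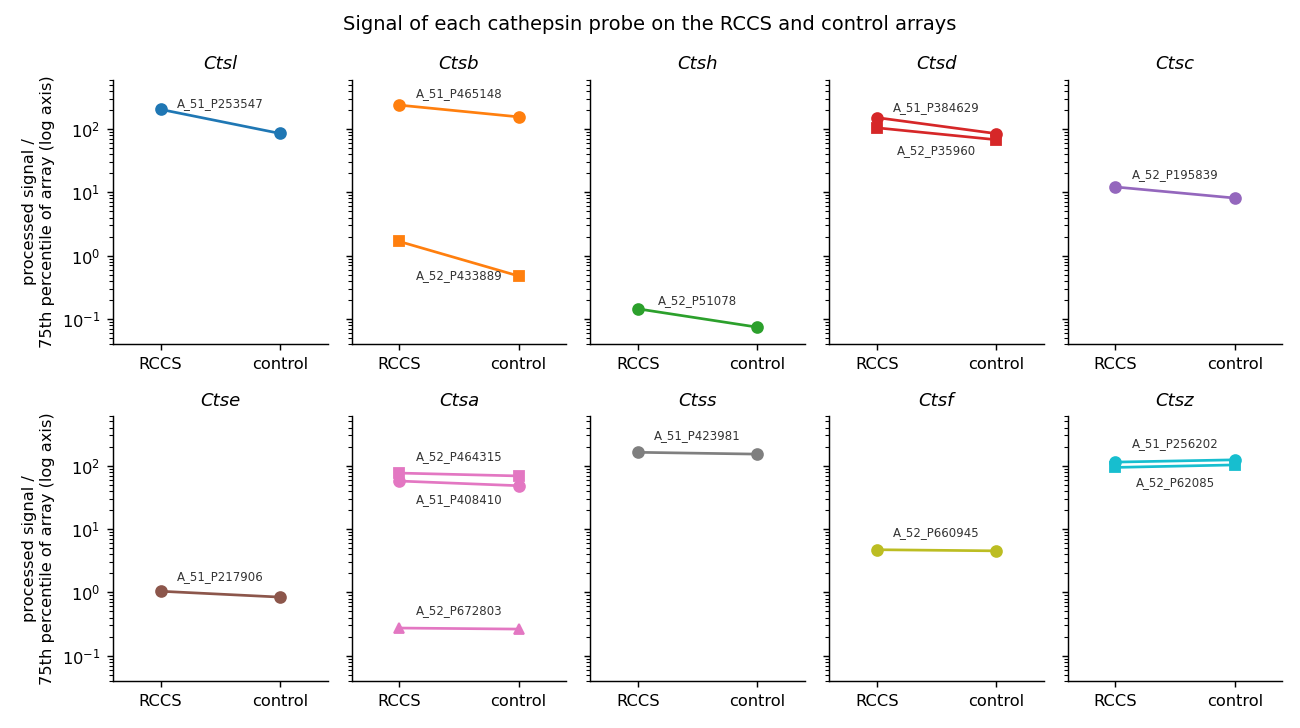
Processed signal of each cathepsin probe divided by the 75th percentile of its array, on a log axis, with the RCCS array left and the control array right in each panel; each line is 1 probe. Ctsl falls off most steeply from RCCS to control among the single-probe genes, while the Ctss, Ctsf and Ctsz lines are nearly level.

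Among the cysteine endopeptidases, Ctsl encodes cathepsin L, which degrades protein in the lysosome and can activate other proteases. Its 1 probe had a processed signal of 197041 in RCCS cells, against 72289 in control cells. The log2 ratio was 1.26 (95% spot interval 0.86 to 1.66), or 2.40-fold higher on the RCCS array. Only 2.17% of all measured genes had a higher log2 ratio than Ctsl.

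Ctsb encodes cathepsin B, which cuts both inside proteins and at their C-terminal end, and its probes gave unequal ratios. Probe A_51_P465148 had 230236 in RCCS cells, against 132003 in control cells, a log2 ratio of 0.62 (0.22 to 1.02). Probe A_52_P433889, which by the coordinates in the files lies 2225 bases further along the gene in the direction of transcription, had 1618 in RCCS cells, against 406 in control cells, a log2 ratio of 1.81 (1.41 to 2.21). Both probes were brighter on the RCCS array, but their ratios differed by 1.19, more than the 0.57 half-width of the spot error of that difference. The gene value of 1.21 is the mean of both, so the place of Ctsb among the genes at least 2-fold higher rests on the second probe. With the brighter probe alone Ctsb was 1.53-fold higher.

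Ctss encodes cathepsin S, which trims the invariant chain of class II antigen presentation and keeps activity at neutral pH. Its signals were 157208 in RCCS cells, against 129455 in control cells, which after scaling is a log2 ratio of 0.09 (-0.31 to 0.49). Ctsf, whose product cathepsin F can also cut the invariant chain in macrophages, had 4557 in RCCS cells, against 3844 in control cells, a log2 ratio of 0.06 (-0.34 to 0.46). Neither gene differed between the arrays by more than the spot error.

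The remaining cysteine members act mainly at the ends of peptides. Ctsh encodes cathepsin H, an aminopeptidase, and was dim, with 140 in RCCS cells, against 63.1 in control cells, where 24.2 was the dimmest signal to pass the background flag. Its log2 ratio was 0.96 (0.49 to 1.43), or 1.95-fold. With normexp background correction, which models the background and here also added an offset of 50 to every signal, that value was 0.53 with 75th percentile scaling and 0.58 with quantile normalization, both under the 1.5-fold line. The offset and the model were changed together and were not told apart.

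Ctsc encodes cathepsin C, the dipeptidyl peptidase that activates the serine proteases of immune-cell granules. It had 11745 in RCCS cells, against 6904 in control cells, a log2 ratio of 0.58 (0.18 to 0.98). Ctsz encodes cathepsin Z, a carboxypeptidase also called cathepsin X. Its probes had 110177 and 90791 on the RCCS array, against 105208 and 87442 on the control array, and log2 ratios of -0.12 and -0.13. Ctsz was thus the member with the lowest ratio, at the median of all measured genes, and its sign depends on the scaling: it was at 0.26 with loess scaling and at 0.18 with spike-in scaling.

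**Figure D2:**
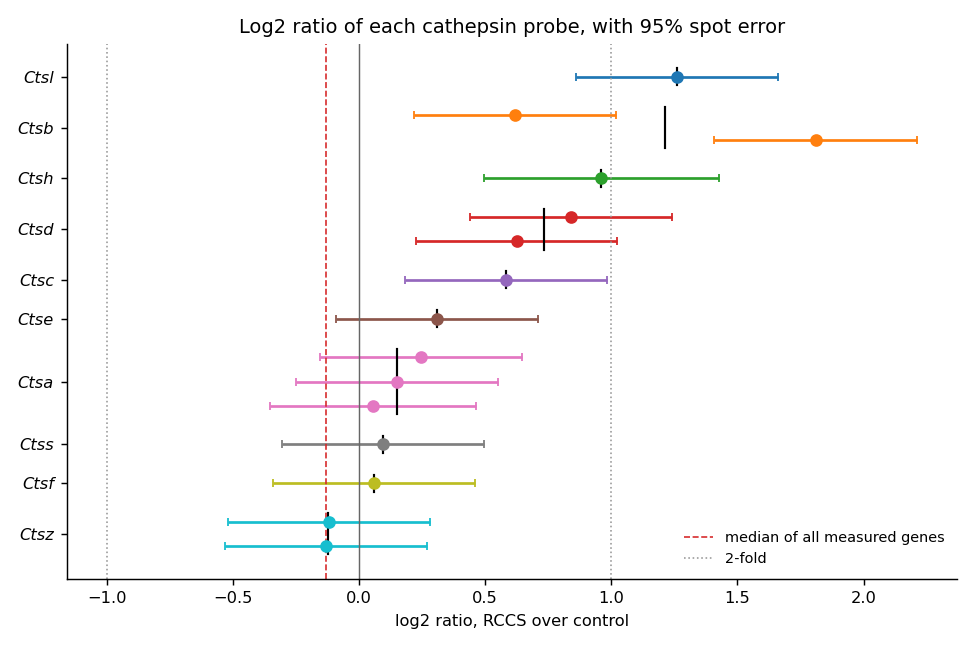
Log2 ratio (RCCS over control) of each of the 15 cathepsin probes with its 95% spot interval; black bars mark the mean of a gene's probes, the dashed line the median of all measured genes and dotted lines 2-fold. The Ctsb probes, at 0.62 and 1.81, have intervals that do not meet, while the probes of Ctsa, Ctsd and Ctsz overlap within each gene.

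The aspartic members both had ratios above 0. Ctsd encodes cathepsin D, the major aspartic protease of lysosomes. Probe A_51_P384629 had 146347 in RCCS cells, against 71913 in control cells, and probe A_52_P35960 had 100910 in RCCS cells, against 57569 in control cells. Their log2 ratios, 0.84 and 0.62, differed by less than the spot error, and their mean of 0.73 (0.45 to 1.01) is 1.66-fold. Ctse encodes cathepsin E, an aspartic protease of the endosome. It had 1006 in RCCS cells, against 715 in control cells, and its log2 ratio of 0.31 (-0.09 to 0.71) did not exceed the spot error.

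Ctsa encodes cathepsin A, a serine carboxypeptidase that also protects beta-galactosidase and neuraminidase in a lysosomal complex. Probe A_52_P464315 had 73935 in RCCS cells, against 58560 in control cells, probe A_51_P408410 had 55319 in RCCS cells, against 41050 in control cells, and probe A_52_P672803 had 264 in RCCS cells, against 224 in control cells. All 3 log2 ratios were small, at 0.15, 0.24 and 0.06, with a mean of 0.15 (-0.08 to 0.38). Unlike Ctsb, the Ctsa probe furthest along the gene, 2045 bases past the first, gave a ratio within the spot error of the others. A further probe, whose file description names the Ctsa protein but whose gene name is a contig identifier, falls outside the naming rule and was looked at after the other values were known. It had 2322 in RCCS cells, against 2077 in control cells, a log2 ratio of -0.02.

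Ordered by log2 ratio the genes ran Ctsl, Ctsb, Ctsh, Ctsd, Ctsc, Ctse, Ctsa, Ctss, Ctsf and Ctsz. In 0 of the 9 neighbouring pairs did the log2 ratios differ beyond the spot error, whereas 24 of all 45 pairs did. The place and pairs of Ctsb use the mean of its probes, with a spot error that leaves out their disagreement. With its brighter probe alone, at 0.62, Ctsb would stand below Ctsh and Ctsd. Ctsl stood above Ctsd by 0.53 and above Ctss by 1.17, both beyond their half-widths of 0.49 and 0.57. The order follows no catalytic class: the cysteine members spanned the whole range, with a median of 0.58 over 7 genes.

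Most of these probes were among the brightest on the array, and bright probes had lower ratios as a whole. The scanner took 9 of the 15 cathepsin spots, from Ctsa, Ctsb, Ctsd, Ctsl, Ctss and Ctsz, from its low-gain scan on both arrays. Of all measured probes 1044 were read in this way on both arrays, with a median log2 ratio of -0.37, against -0.11 for the other measured probes. All 9 cathepsin probes lay above that median, and 7 had log2 ratios above 0, against 11.6% of the low-gain probes. The 9 are probes of 6 genes, so Ctsa, Ctsd and Ctsz count more than once. At least 1.5-fold higher were 4 of the 9, against 2.39% of the low-gain probes. These were the probes of Ctsl and Ctsb and both probes of Ctsd, so Ctsd counts more than once. At least 2-fold higher was 1, against 0.383%. The Ctsl probe had the second highest ratio of the 1044. The probe of Ctsd with the higher ratio stood at place 12, the bright probe of Ctsb at place 21 and that of Ctss at place 90. The part of the low-gain scan in these ratios was not tested.

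**Figure D3:**
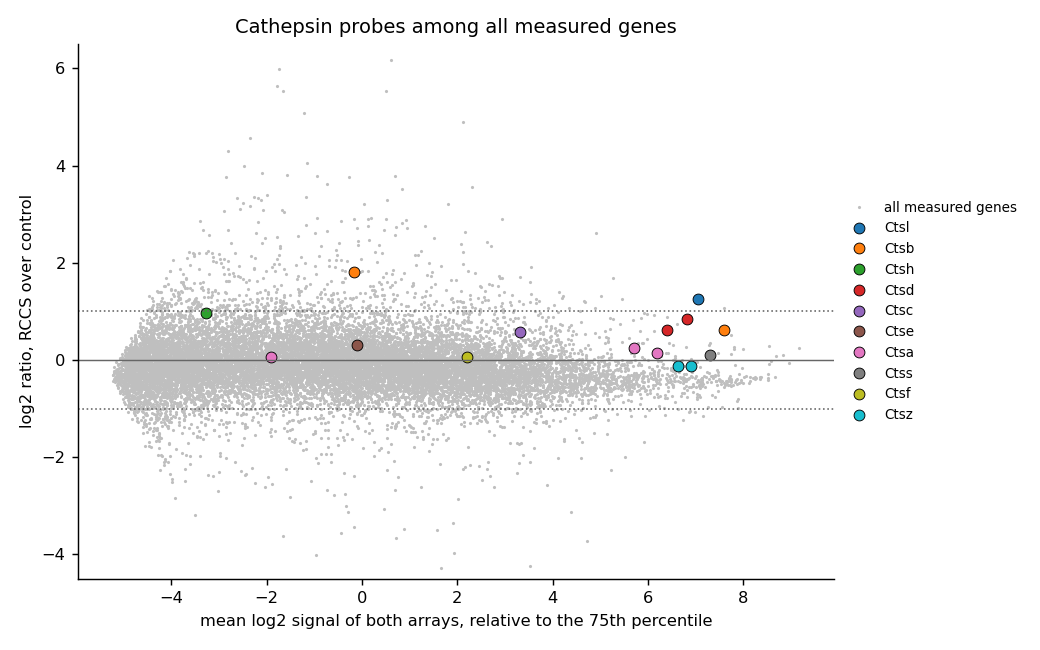
Log2 ratio (RCCS over control) against mean log2 signal of both arrays relative to the 75th percentile, for all 16024 measured genes (grey, 1 point a gene) and the 15 cathepsin probes (coloured, 1 point a probe); dotted lines mark 2-fold. At the bright end the grey points lie mostly below 0 and the cathepsin probes lie along their upper side, with Ctsl highest at 1.26.

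Promoter sequence is shown because lysosomal genes, cathepsins among them, are known to carry E-boxes bound by the transcription factors TFEB, TFE3 and MITF. The motif searched was CACGTG, which reads the same on both strands, and its longer form TCACGTGA, which contains it, in the 250 bases before each annotated start of RefSeq on build GRCm38.p6. The table held 8 starts for 7 of the genes. CACGTG was in 4 of these 8 windows, for Ctsa, Ctsd, Ctsf and Ctsl, and in 6.02% of all 32851 windows. TCACGTGA was in 2 of the 8, for Ctsa and Ctsd, and in 0.785% of all windows. Ctsd had the motif at 245 and 98 bases before its start, and its window, chr7:142387828-142388077 on the minus strand, is printed whole with the motif in capitals.
Ctsd: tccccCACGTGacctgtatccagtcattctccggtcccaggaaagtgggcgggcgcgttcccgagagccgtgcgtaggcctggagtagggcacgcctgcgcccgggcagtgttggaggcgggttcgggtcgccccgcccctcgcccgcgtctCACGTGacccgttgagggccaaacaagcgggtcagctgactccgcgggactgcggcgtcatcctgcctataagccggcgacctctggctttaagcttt
The other matches are given with 10 bases on each side, so that the flanking bases can be compared. They lie at chr2:164833751-164833776 on the plus strand for Ctsa, chr19:4855076-4855101 on the plus strand for Ctsf and chr13:64370741-64370766 on the minus strand for Ctsl.
Ctsa: agcaaactgtCACGTGatgcagatgc
Ctsf: ccccgtggtcCACGTGcctcgcgtaa
Ctsl: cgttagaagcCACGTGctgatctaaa
The windows of Ctsl, of this start of Ctsa and of Ctsc, which had no match, overlap an annotated gene span. They may thus lie within a transcribed region and not before a gene's first start. The counts above include the matches of Ctsl and Ctsa all the same. The 4 genes with the motif had log2 ratios of 1.26 (Ctsl), 0.73 (Ctsd), 0.15 (Ctsa) and 0.06 (Ctsf). The 3 genes with no match in the windows had 0.58 (Ctsc), 0.09 (Ctss) and -0.13 (Ctsz). A match is a stretch of letters and was not tested for binding.

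Of the factors that bind this motif, all 4 in the list used were measured and 0 were at least 2-fold higher or lower, against 3.88% and 3.78% of all measured genes. Tfec, a family member found in macrophages, had 2344 in RCCS cells, against 1079 in control cells with its brighter probe, and a gene log2 ratio of 0.76. Tfe3 was at 0.44, Mitf at 0.22 and Tfeb at -0.30.

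Genes that act on cathepsins after transcription were set beside them. Of 5 processing and partner genes, 4 had log2 ratios above 0, against 38.2% of all measured genes, and 2 were at least 1.5-fold higher, against 9.74%, with a median of 0.25. Lgmn, which encodes the asparaginyl endopeptidase legumain that cuts several cathepsins to their mature forms, had 49538 in RCCS cells, against 24420 in control cells, a log2 ratio of 0.83. Psap, the precursor of the saposins, which travels with procathepsin D, was at 0.74, beside 0.73 for Ctsd. The partners of cathepsin A in its lysosomal complex are the products of Neu1, at 0.25, and Glb1, at 0.21, beside 0.15 for Ctsa.

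The 13 genes of lysosomal delivery were all measured. Their median was 0.18. In either direction 0 passed 2-fold, near the shares of 3.88% upward and 3.78% downward among all measured genes. Scarb2, a lysosomal membrane receptor for glucocerebrosidase, was at 0.62 and Gga2, an adaptor of the mannose 6-phosphate route, at -0.55. Nagpa, which uncovers the mannose 6-phosphate tag, was at -0.53. Gnptab, the transferase that starts the tag, was at 0.45, but its probes ran from -0.03 to 0.90.

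Other cathepsin genes on the array divided into expressed and not. Ctsk had 5896 in RCCS cells, against 2225 in control cells, a log2 ratio of 1.22 beside 1.26 for Ctsl. The 3 measured genes had a median of 0.75. Ctso had 3037 in RCCS cells, against 1589 in control cells, a log2 ratio of 0.75. Ctsg was dim, with 87.3 in RCCS cells, against 84.3 in control cells, a log2 ratio of -0.14. Of the other 9, 6 were not well above background on either array (Ctsj, Ctsq, Cts3, Cts6, Cts7 and Cts8). Ctsr at 35.4 and Ctsm at 26.7 passed the background flag in RCCS cells alone, and Ctsw at 25.1 in control cells alone.

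Cathepsin inhibitors lay on both sides of 0. Of 7 measured genes in the list, 3 passed 2-fold upward in RCCS cells, against 3.88% of all measured genes, and 1 downward, against 3.78%, with a median of 0.15. Cst3, the secreted inhibitor cystatin C, was at -0.11 with 211348 in RCCS cells, against 200538 in control cells, and Cstb, the cytosolic stefin B, was at 0.15. Cst7, which encodes cystatin F, an inhibitor that acts on cathepsin C, had 412 in RCCS cells, against 762 in control cells, a log2 ratio of -1.07. Ctla2a and Ctla2b, which encode relatives of the cathepsin propeptide that inhibit cathepsin L-like enzymes, were at 3.18 and 3.76, with control signals of 55.7 and 32.1 near the dim end. Stfa3, of the stefin A group, was at 5.99, with 2322 in RCCS cells, against 32.1 in control cells, also near the dim end. Its relatives Cstdc6, Stfa2 and Stfa2l1 passed the background flag in RCCS cells alone, and were at least 80.8-fold, 26.4-fold and 7.44-fold higher there. Those bounds set the RCCS signal against the higher of the dim probe's own signal and the lowest signal that passed the flag on the control array. For Cstdc6 that is the brightest of 3 probes. The log2 ratios of the 3 ran from 5.0 to 6.4. They rest on control signals that failed the background flag and do not count as measured. These genes are near-identical copies, so the values are uncertain for each one.

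Cd74, the invariant chain that cathepsin S and cathepsin L cut, was at -0.07, and the class II list of 7 genes had a median of -0.21. Its lowest member was H2-Ab1 at -2.49, with 2 of its 4 probes measured, at -3.21 and -1.78. Of these, the probe brighter in control cells had 31.0 in RCCS cells, against 252 in control cells. The dimmest RCCS signal to pass the background flag was 21.2. H2-Aa followed at -0.93, with signals of 27.0 in RCCS cells, against 45.2 in control cells. Ifi30 was at -0.39 and H2-Eb1 at -0.21. The members above 0 were H2-DMa at 0.12 and H2-DMb1 at 0.14. H2-DMa had 2326 in RCCS cells, against 1881 in control cells, and H2-DMb1 had 591 in RCCS cells, against 471 in control cells. Of 7 serine protease genes whose products cathepsin C activates, 3 were measured and 0 passed 1.5-fold in either direction, which with 3 genes is near the shares of 9.74% upward and 14.9% downward among all measured genes. Mcpt4 was at -0.18, with 38.6 in RCCS cells, against 38.5 in control cells. Ctsg, in this list too, is given above, and Prtn3 was at 0.05. Cma1, at 40.1, passed the background flag in RCCS cells alone. Elane, Gzma and Gzmb were not well above background on either array.

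**Figure D4:**
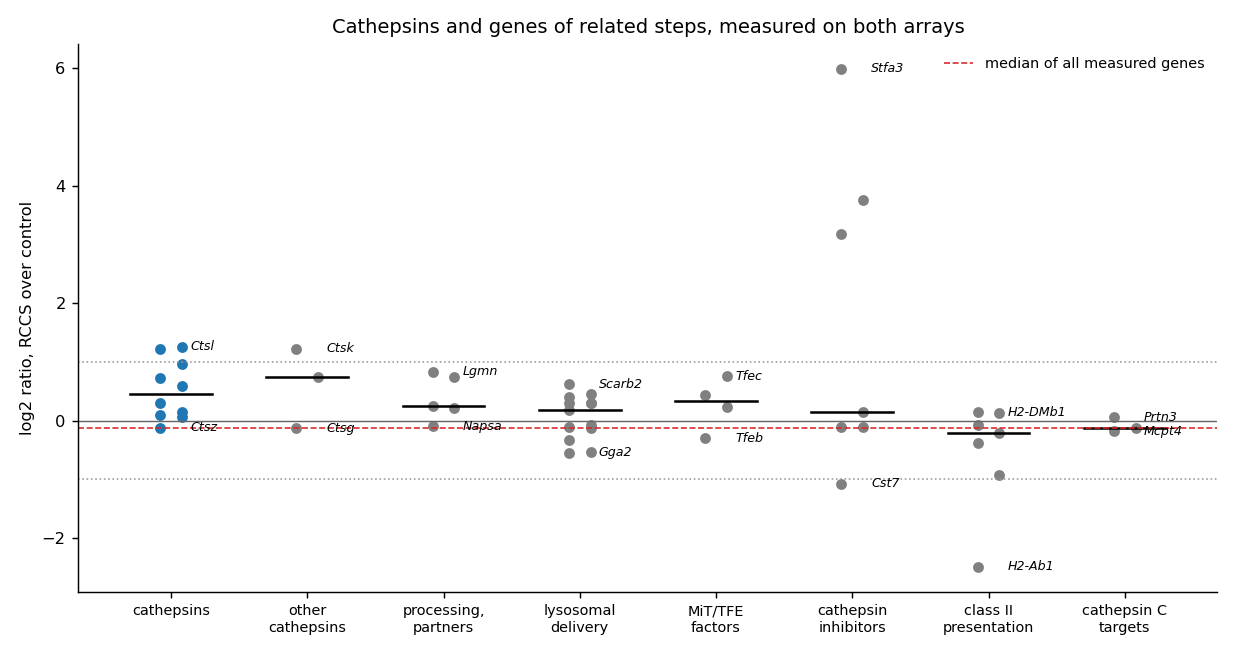
Log2 ratio (RCCS over control) of each measured gene in the cathepsin group (blue) and in 7 lists of related genes (grey); black bars are list medians, the dashed line the median of all measured genes, dotted lines 2-fold, and the highest and lowest gene of each list are named. The cathepsin median of 0.44 lies below that of the other cathepsins (0.75, 3 genes) and above those of the TFE factors (0.33), partners (0.25), delivery genes (0.18), inhibitors (0.15), cathepsin C targets (-0.14) and class II genes (-0.21); the inhibitors reach from -1.07 for Cst7 to 5.99 for Stfa3.

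Across 14 alternatives Ctsl stayed between 1.26 and 1.65 and was at least 2-fold higher in all 14. With 1 probe of 1 spot, changes of probe summary, dim-probe filter or outlier spots could not move it. Ctsb was at least 2-fold higher in 13 of the 14, all of which draw on both its probes, the exception being the brightest probe. Ctsd and Ctsh were at least 2-fold higher in 4 each. For Ctsh 1 of these is the authors' deposited table, where its values are rounded to 0.14 in RCCS cells and 0.07 in control cells, so that call comes from the rounding. Set against the median of all measured genes under each setting, 9 of the genes were above it in every setting. Ctsz was above it in 14 of 15. Much of this count was fixed by construction. Spike-in scaling and any other scaling that shifts all genes alike could not change it, and the group median stayed 0.57 above that median. The dim-probe filters and the outlier setting moved no cathepsin value, only the median of all measured genes.

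**Figure D5:**
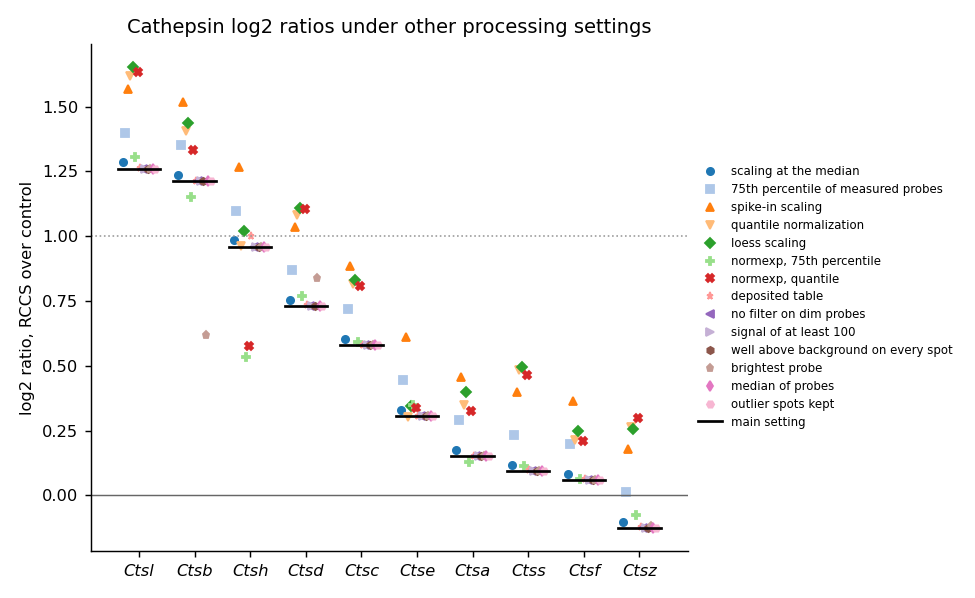
Log2 ratio (RCCS over control) of each cathepsin gene under the setting used in the text (black bars) and 14 alternatives (symbols); the dotted line marks 2-fold. Ctsl lies above 2-fold throughout, Ctsb drops to 0.62 with its brightest probe, Ctsh to 0.53 with normexp, and Ctsz lies on both sides of 0.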

How the data were processed

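Intensities were deposited by the authors as 1-colour Agilent spot tables, made with Agilent Feature Extraction 9.5.3.1 per the file headers: background-subtracted, detrended and not scaled between arrays. Per the file headers both arrays lay on 1 slide and were scanned together. A second deposited table holds a ratio per probe; beside the scanner files its columns equal each array's processed signal over 964 (RCCS) and 849 (control), with a lowest value of 0.01 and a median of 0.06 in both columns. Each column is 1 array's signal, with no centring over genes.

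Outlier spots were left out where a probe had others and spots of a probe averaged. A probe was measured where at least 50% of its spots were well above background on both arrays. Gene values are means over measured probes. Accessions of 22951 probes matched GRCm38.p6 symbols, and 18223 kept the file's name. For the array's annotation the sources used here name no genome build. Repeated probes with a signal of at least 100 had a median SD of 0.04 in log2 ratio over spots (108 probes).

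Named genes are the 10 members. From each related list come up to 4 measured genes with the largest absolute log2 ratio and those well above background on 1 array only. Cst3, Cstb, Cd74, H2-DMa and H2-DMb1 were added after their values were seen. Members and lists were chosen with earlier results of these data known. Alternatives changed scaling, background correction (normexp of limma 3.58.1, offset 50), the table, the dim-probe filter, the probe summary, outlier spots and the threshold. Calculations used Python 3.11.15 and were tested on simulated data.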

Additional observations from a re-analysis of the deposited data

How the results depend on the processing

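Of 140 gene values under alternatives, 128 stayed within the spot interval of the value in the text and 12 did not. Part of the 128 was fixed in advance. Every member probe was measured, had 1 spot and was no outlier, so the outlier setting and the filters on the background flag moved no value. The filter for a signal of at least 100 moved none either. Ctsh, however, reached 100 in RCCS cells alone, with 140 there, against 63.1 in control cells. The choice of probe summary could not move a gene with 1 probe. Spike-in scaling (8 probes) moved the median of all genes by 0.31 and gave 0.46 for Ctsa, 1.52 for Ctsb, 1.04 for Ctsd, 0.18 for Ctsz, a group median of 0.75 and 4 genes at least 2-fold higher, against 7.43% of all measured genes. Loess scaling (shift 0.13) gave 0.40 for Ctsa, 1.11 for Ctsd, 0.26 for Ctsz, a median of 0.66 and 4 genes, against 4.71%. Quantile normalization gave 1.08 for Ctsd, 0.26 for Ctsz and a median of 0.65. Normexp with quantile normalization gave 1.11 for Ctsd and 0.30 for Ctsz. The 75th percentile of measured probes (shift 0.14) gave a median of 0.58. The brightest probe gave 0.62 for Ctsb and 1 gene at least 2-fold higher, against 4.28%. The count was 4 at 1.5-fold, against 9.74%, and 0 at 3-fold, against 1.28%. No cathepsin gene was at least 2-fold lower in any of the 14 alternatives. The causes were not tested, beyond what each alternative changes by construction. No paired analysis was possible because each condition had 1 array. The same lack of replicates limits every value.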
